A study of Mus musculus with 6 samples.

Results

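The collagen chain genes of the mouse aorta were compared between mice lacking endothelial nitric oxide synthase (eNOS) and wild-type controls. Each collagen gene encodes a single polypeptide, an alpha chain, and the members were taken as all genes whose only annotated symbol has the form Col, a type number, the letter a and a chain number. The array measured 44 such genes among 22184 genes with a probe set of their own, and each gene was read from its brightest probe set. They were grouped by the assemblies their chains form: 11 fibrillar, 8 basement membrane, 9 FACIT (fibril-associated collagens with interrupted triple helices), 8 beaded-filament and 4 transmembrane chains, with a further 4 chains that build hexagonal networks or anchoring fibrils.

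The eNOS-KO group held 3 aortas (numbered 11, 15 and 19) from mice deficient in eNOS, the enzyme encoded by Nos3. The WT group held 3 aortas (numbered 2, 3 and 5) from normal mice of matched age. Total RNA of each aorta was hybridised to 1 Affymetrix array, and values are log2 signals, on which a difference of 1 is a doubling. The labels leave out age in weeks, sex, strain, the targeted allele and the part of the aorta taken. They also do not state that each sample was a different animal, so the tests cover the spread of these 6 samples, which may be technical.

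Collagen chains wind around each other into a triple helix in the endoplasmic reticulum, are secreted, trimmed and cross-linked, and give the vessel wall its tensile strength. In an artery, smooth muscle cells and adventitial fibroblasts make the fibrillar types I, III and V, which carry load at high pressure, while type IV chains form the sheet under the endothelium and around each muscle cell. FACIT chains sit on the surface of fibrils, and type VI chains form thin beaded filaments between fibrils and cells.

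Promoter stretches of 4 members are shown as background. Col1a2 and Col3a1 encode main fibrillar chains. Col4a5 and Col4a6 start close together on opposite strands of chromosome X yet gave unequal differences between the genotypes. A link between these sequences and the differences was not tested. Sequences are from RefSeq on GRCm38.p6, 5′ to 3′ on each gene's own strand, cut to the bases ahead of the start site that lie outside annotated genes. Capitals mark, on either strand, the letters CCAAT of the CAAT box, the letters TATAAA of the TATA box, and the letters GGGCGG, which the factor Sp1 is known to bind.
Col1a2 (chr6:4505368-4505617, plus strand): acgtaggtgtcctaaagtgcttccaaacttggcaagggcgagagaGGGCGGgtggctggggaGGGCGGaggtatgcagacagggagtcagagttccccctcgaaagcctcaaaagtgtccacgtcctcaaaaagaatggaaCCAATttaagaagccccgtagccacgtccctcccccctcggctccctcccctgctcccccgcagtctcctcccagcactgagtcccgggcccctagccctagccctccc
Col3a1 (chr1:45311288-45311537, plus strand): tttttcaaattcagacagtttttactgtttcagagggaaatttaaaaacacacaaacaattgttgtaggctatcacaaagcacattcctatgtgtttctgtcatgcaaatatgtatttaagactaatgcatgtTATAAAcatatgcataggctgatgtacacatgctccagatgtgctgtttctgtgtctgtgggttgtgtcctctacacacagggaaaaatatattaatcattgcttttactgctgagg
Col4a5 (chrX:141475169-141475369, plus strand): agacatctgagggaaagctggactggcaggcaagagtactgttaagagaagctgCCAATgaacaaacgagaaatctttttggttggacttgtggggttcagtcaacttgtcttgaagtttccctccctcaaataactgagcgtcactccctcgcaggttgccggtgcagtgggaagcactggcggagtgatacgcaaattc
Col4a6 (chrX:141474096-141474326, minus strand): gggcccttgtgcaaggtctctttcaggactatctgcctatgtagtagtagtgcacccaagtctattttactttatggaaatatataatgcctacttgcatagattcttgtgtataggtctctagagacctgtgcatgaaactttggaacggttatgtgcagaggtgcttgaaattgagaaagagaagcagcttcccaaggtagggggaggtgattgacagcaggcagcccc
The Col1a2 stretch held 1 CCAAT and 2 GGGCGG matches, that of Col3a1 held 1 TATAAA match, and that of Col4a5 held 1 CCAAT match. None of the 3 motifs was found in the Col4a6 stretch.

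Facts of the arrays bear on the collagen values. Array medians lay between 5.55 and 5.59 in eNOS-KO and between 5.61 and 5.68 in WT, and Pearson's r between arrays was 0.947 to 0.983 across probe sets, which are not replicates. Nos3 had signals of 7.13, 7.39 and 7.27 on eNOS-KO arrays 11, 15 and 19, against 7.99, 7.88 and 7.36 on WT arrays 2, 3 and 5 (two-sided exact permutation p = 0.2, where 3 against 3 cannot go below 0.1). The difference was -0.48, with a limma p of 0.0359 before and 0.399 after adjustment over all genes. Where the Nos3 probes lie relative to the deleted part is not known here, so this checks no label. The 10 endothelial markers averaged 8.21, 8.48 and 8.55 on the eNOS-KO arrays and 8.90, 8.97 and 8.12 on the WT arrays, so WT 5 was lowest, with eNOS-KO 11 close to it. In bulk tissue, fewer cells of a type and less RNA per cell cannot be told apart. The 10 squamous epithelium markers tested averaged 5.28, 5.32 and 5.23 in eNOS-KO against 6.22, 5.49 and 8.57 in WT, so WT 5 stood far above the rest. The 10 skeletal muscle markers averaged 11.57 on eNOS-KO 11 and 10.98 on WT 5, and lay between 9.17 and 10.08 on the other arrays. The 3 Y-linked genes measured averaged 7.76, 4.71 and 8.0 in eNOS-KO against 3.63, 3.54 and 3.47 in WT. Xist stood at 5.65, 11.88 and 8.29 in eNOS-KO against 12.09, 12.08 and 12.09 in WT. The genotypes did not overlap in either, but the eNOS-KO arrays were unlike each other, and eNOS-KO 15 lay nearest WT in both. Sex is not in the labels, so a part of sex in a difference between genotypes cannot be told apart from genotype. The 10 contractile smooth muscle markers averaged 9.58, 9.37 and 9.64 in eNOS-KO against 9.35, 9.20 and 9.10 in WT. The labelled tissue's own markers were thus bright throughout, though their mean was higher on every eNOS-KO array by a margin that was narrow at its closest. Of the 10, 9 were above 0 and Myh11 was below (-0.27). Des was brightest on eNOS-KO 11 (11.56) and WT 5 (11.30), the arrays where the skeletal muscle markers were highest. Its part in the margin was not tested. The 10 brown and white adipocyte markers were brighter still, at 11.02, 11.16 and 11.05 in eNOS-KO against 11.09, 11.22 and 10.85 in WT.

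The collagen family as a whole stood close to the background of all genes. No collagen gene passed the test over all 18008 genes tested (limma, smallest adjusted p = 0.289), where 0.0278% of all genes did. At an unadjusted p under 0.05, 4 of 44 collagens were higher in eNOS-KO aorta (Col4a5, Col12a1, Col14a1 and Col6a5), beside 7.86% of all genes, and 1 was lower (Col17a1), beside 3.72% of all genes. In either direction this was 11.4% of collagens against 11.6% of all genes. All 3 eNOS-KO arrays lay above all 3 WT arrays in 5 collagens (Col4a5, Col12a1, Col6a5, Col18a1 and Col5a2), beside 13.1% of all genes, and below them in 4 (Col17a1, Col25a1, Col9a3 and Col9a2), beside 6.47% of all genes.

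Differences were small. The difference was above 0 for 27 collagens, beside 56.6% of all genes, and the median was 0.03 against 0.04 for all genes. The collagen median was -0.0011 without WT 5 and 0.13 without eNOS-KO 19. Of the 44 chains, 31 differed by less than 0.25 log2, 39 had 95% intervals that included 0, and none differed by 1 log2. A fold of at least 1.5 in either direction was reached by Col14a1 and Col17a1 alone. Brighter chains tended to be higher in eNOS-KO: 19 of the 22 brightest were above 0 (median 0.21), against 8 of the 22 dimmest (median -0.04). All genes followed the same order, with 70.5% above 0 among those as bright as the brighter collagens (median 0.10) and 36.8% among dimmer ones (median -0.07). The counts of chains above or below 0 in each class below stand against these shares. The median standard error of a collagen difference was 0.155, and the number of arrays limits this precision.

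**Figure D1:**
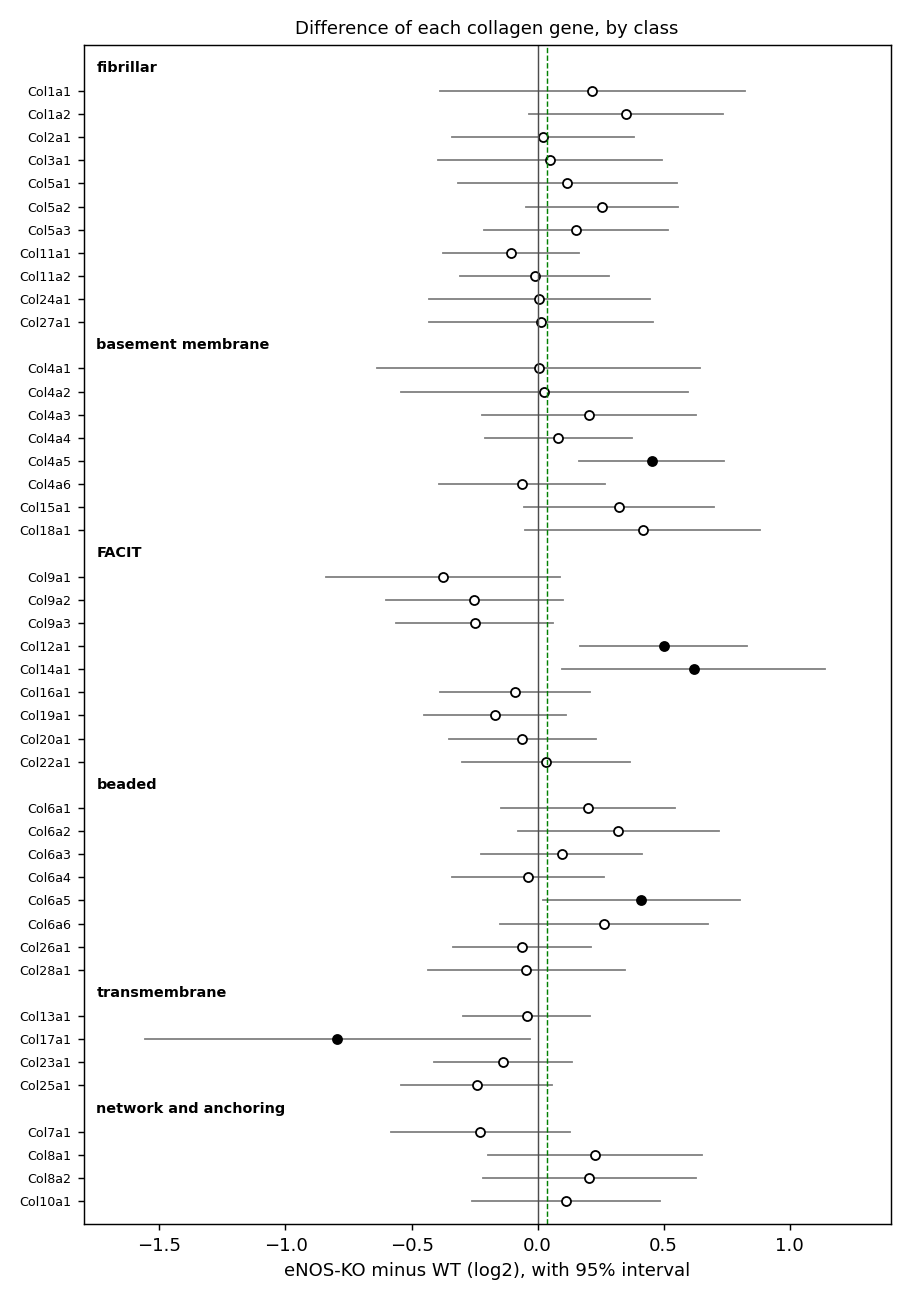
Difference in log2 signal, eNOS-KO minus WT, of the 44 collagen genes by class, with 95% intervals from limma (3 arrays per genotype); filled points have an unadjusted p under 0.05 and the dashed line is the median of all genes tested. Most intervals include 0; Col4a5, Col12a1, Col14a1 and Col6a5 lie above it and Col17a1 below it.

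Fibrillar chains, which form the banded load-bearing fibrils, had small differences between the genotypes. None of the 11 had an unadjusted p under 0.05, 9 were above 0 and the median difference was 0.05, which was -0.03 without WT 5 and 0.18 without eNOS-KO 19. Type I collagen is a trimer of 2 Col1a1 chains and 1 Col1a2 chain. Col1a1 had signals of 8.64, 8.78 and 8.13 on eNOS-KO arrays 11, 15 and 19, against 8.62, 8.47 and 7.81 on WT arrays 2, 3 and 5, a difference of 0.22 (SE 0.26, limma adjusted p = 0.791). The low array of each genotype, eNOS-KO 19 and WT 5, lay below the rest of its group by more than the difference between genotypes, and without WT 5 the difference was -0.03. Col1a2 had 8.54, 8.38 and 8.23 in eNOS-KO against 8.30, 8.02 and 7.79 in WT, higher by 0.35 on average (95% interval -0.03 to 0.74, adjusted p = 0.468). WT 2 lay inside the eNOS-KO range. A second probe set of Col1a2, dimmer than the first, read 6.07, 6.16 and 5.82 in eNOS-KO against 5.49, 5.62 and 5.05 in WT, without overlap, a difference of 0.63.

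Col3a1, whose chain forms type III collagen of distensible tissues, had 8.56, 8.48 and 8.0 in eNOS-KO against 8.49, 8.32 and 8.08 in WT. The groups overlapped fully, and the difference of 0.05 had an interval of -0.39 to 0.49. Type V collagen nucleates type I fibrils and sets their width. Its chain gene Col5a2 had 6.69, 6.63 and 6.70 in eNOS-KO against 6.53, 6.22 and 6.51 in WT, apart by a narrow margin, with a difference of 0.25 (interval -0.05 to 0.56, adjusted p = 0.494). Col5a1, the other main chain, had 7.04, 7.01 and 6.83 in eNOS-KO against 7.18, 6.85 and 6.50 in WT, with both extremes in WT. Its difference of 0.12 became -0.05 without WT 5, and its second probe set differed by -0.02. Col5a3 had 6.60, 6.51 and 6.29 in eNOS-KO against 6.26, 6.56 and 6.13 in WT, overlapping, with a difference of 0.15. Chains best known from cartilage differed little in their means: Col2a1 differed by 0.02 and Col11a2 by -0.01. Col11a1 had 4.78, 4.64 and 4.86 in eNOS-KO against 4.85, 4.85 and 4.90 in WT, a difference of -0.11 with eNOS-KO 15 lowest. Col24a1 and Col27a1, fibrillar chains with a minor place in most tissues, each differed by 0.01.

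Among basement membrane chains, Col4a5 differed most clearly, and the means of the vascular pair Col4a1 and Col4a2 differed by under 0.05 log2 between genotypes, which rested on WT 5. Of the 8 chains, 7 were above 0 (median 0.14, or 0.07 without eNOS-KO 15 and 0.22 without WT 2), and 1 had an unadjusted p under 0.05. Col4a5, an X-linked chain that joins Col4a3 and Col4a4 in the kidney and Col4a6 around smooth muscle, had 6.68, 6.66 and 6.49 in eNOS-KO against 6.17, 6.04 and 6.25 in WT. Every eNOS-KO array lay above every WT array, and the difference of 0.45 (SE 0.12, interval 0.17 to 0.74) had a limma p of 0.00717 before and 0.289 after adjustment. Its neighbour Col4a6 had 5.97, 5.85 and 5.90 in eNOS-KO against 6.14, 6.03 and 5.74 in WT, a difference of -0.06 with overlap. The Y-linked and Xist signals above also did not overlap between genotypes, though eNOS-KO 15 lay near WT for Xist (11.88 against 12.08 to 12.09). Their part in the Col4a5 difference was not tested.

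Col4a1 and Col4a2 encode the chains of the type IV network found in nearly all basement membranes, and are transcribed from a shared region in opposite directions. Col4a1 had 7.38, 7.29 and 7.51 in eNOS-KO against 7.77, 7.67 and 6.72 in WT. Col4a2 had 7.22, 7.11 and 7.22 in eNOS-KO against 7.58, 7.29 and 6.60 in WT. For both chains WT 2 and WT 3 were the brightest arrays and WT 5 was the dimmest, while the eNOS-KO arrays lay close together (SD 0.11 against 0.58 in WT for Col4a1, n = 3 each). The mean differences were 0.00 (interval -0.63 to 0.64) for Col4a1 and 0.03 (interval -0.54 to 0.59) for Col4a2. Without WT 5, the Col4a1 difference was -0.33 at an unadjusted p under 0.05 (limma adjusted p = 0.303) and that of Col4a2 was -0.25. The endothelial markers were lowest on WT 5 as well (8.12). They were nearly as low on eNOS-KO 11 (8.21), where Col4a1 and Col4a2 lay with the other eNOS-KO arrays. The contractile smooth muscle markers were also lowest on WT 5 (9.10). The part of either marker list in the type IV values was not tested.

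The multiplexins Col15a1 and Col18a1 link basement membranes to the matrix around them, and the tail of Col18a1 yields endostatin. Col18a1 had 7.61, 7.22 and 7.34 in eNOS-KO against 7.20, 7.15 and 6.58 in WT, apart by 0.42 on average (interval -0.05 to 0.88, adjusted p = 0.478), with WT 5 lowest. The difference was 0.22 without WT 5. Col15a1 had 7.05, 7.08 and 6.67 in eNOS-KO against 6.62, 6.77 and 6.44 in WT, a difference of 0.32 with WT 3 inside the eNOS-KO range. Col4a3, a chain of the kidney filter, had 5.48, 6.09 and 5.59 in eNOS-KO against 5.45, 5.45 and 5.66 in WT, a difference of 0.20 with eNOS-KO 15 highest, which was 0.02 without that array. Its partner Col4a4 differed by 0.08.

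FACIT chains included Col12a1 and Col14a1 with higher means in eNOS-KO and the type IX chains of cartilage with lower means. Of 9 measured, 2 were higher at an unadjusted p under 0.05 and none lower, while 6 of 9 lay below 0 (median -0.09). Of all genes tested, 56.6% were above 0, but only 36.8% of those dimmer than the brighter collagens. Col14a1, which coats fibrils and limits their fusion, had 8.45, 8.60 and 8.11 in eNOS-KO against 7.46, 7.64 and 8.20 in WT. WT 5 reached the eNOS-KO range, and the difference of 0.62 (SE 0.22, a fold of 1.54) had a limma p of 0.0259 before and 0.375 after adjustment. Col12a1, a tension-responsive chain of fibril surfaces, had 6.91, 6.59 and 6.80 in eNOS-KO against 6.32, 6.38 and 6.10 in WT. All eNOS-KO arrays lay higher, by 0.50 on average (SE 0.14, limma p of 0.00874 before and adjusted p = 0.294 after Benjamini-Hochberg adjustment). The 9 adventitial fibroblast markers averaged 9.17, 8.94 and 9.05 in eNOS-KO against 8.23, 8.35 and 8.68 in WT, and 7 of the 9 were higher at an unadjusted p under 0.05. They moved in the same direction as Col12a1 and Col14a1 between the genotypes, and WT 5 was the highest WT array for these markers and for Col14a1 but the lowest for Col12a1. Their part in either difference was not tested.

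Type IX chains decorate cartilage fibrils and are best known from joints, the eye and the ear. Col9a1 had 4.70, 4.77 and 4.61 in eNOS-KO against 4.70, 5.02 and 5.47 in WT, a difference of -0.37 in which WT 5 stood highest and which was -0.17 without that array. Col9a2 had 6.96, 6.85 and 6.72 in eNOS-KO against 6.97, 6.97 and 7.35 in WT. Col9a3 had 5.34, 5.10 and 5.28 in eNOS-KO against 5.46, 5.36 and 5.65 in WT. Col9a2 and Col9a3 did not overlap between genotypes, each differing by -0.25, though eNOS-KO 11 and the lower WT arrays nearly met for Col9a2, and no type IX chain had an unadjusted p under 0.05. The 9 chondrocyte markers tested averaged 6.10, 6.05 and 6.08 in eNOS-KO against 5.90, 5.82 and 5.99 in WT. Of these 9, 6 were above 0, among them Cytl1 (0.53) and Sox9 (0.20), and 3 were below 0. The higher mean in eNOS-KO came mostly from Acan (a difference of 1.38). The other markers with an unadjusted p under 0.05, Snorc (-0.47) and Ihh (-0.35), were lower. The part of these markers in the type IX values was not tested. Of the remaining members Col16a1 differed by -0.09, Col19a1 by -0.17, Col20a1 by -0.06 and Col22a1 by 0.03.

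Beaded-filament chains were slightly higher in eNOS-KO when averaged over the class. Of 8, 5 were above 0 (median 0.15) and Col6a5 alone had an unadjusted p under 0.05. Col6a1, Col6a2 and Col6a3 form the usual type VI trimer, the most widespread form of this collagen. Col6a1 had 9.07, 9.06 and 8.67 in eNOS-KO against 8.82, 8.67 and 8.70 in WT, a difference of 0.20 (SE 0.15). Col6a2 had 7.98, 7.97 and 7.50 in eNOS-KO against 7.58, 7.60 and 7.32 in WT, a difference of 0.32 (SE 0.17). Col6a3 had 7.61, 7.52 and 7.40 in eNOS-KO against 7.57, 7.45 and 7.23 in WT, a difference of 0.10 (SE 0.14). For these 3 chains eNOS-KO 19 was the low array of its group. It lay inside the WT range for Col6a2 and Col6a3, and at or just under the lowest WT array for Col6a1. The Col6a3 difference was 0.0018 without WT 5 and 0.17 without WT 2. A second Col6a1 probe set differed by 0.24. A further probe set, which names Col6a1 together with Rps21 and other genes, went the other way. It read 6.66, 6.44 and 6.86 in eNOS-KO against 7.38, 7.09 and 6.85 in WT, and cannot be assigned to 1 gene.

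Col6a5 can take the place of Col6a3 in the trimer. It had 6.11, 6.24 and 6.61 in eNOS-KO against 5.78, 5.88 and 6.07 in WT, apart by a margin between eNOS-KO 11 and WT 5 that was small beside the difference of 0.41 (SE 0.17), with a limma p of 0.0413 before and 0.414 after adjustment. Col6a6, a further chain of this kind, had 6.87, 6.70 and 6.25 in eNOS-KO against 6.38, 6.40 and 6.24 in WT, a difference of 0.26 with eNOS-KO 19 near the WT level. Col6a4, their neighbour on chromosome 9, differed by -0.04, Col26a1 by -0.06 and Col28a1 by -0.04.

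Transmembrane chains were lower in eNOS-KO in all 4 cases (median -0.19), and 1 had an unadjusted p under 0.05. Col13a1, Col17a1 and Col25a1 were among the dimmer collagens. Of all genes tested, 56.6% were above 0, but only 36.8% of those dimmer than the brighter collagens. The part of brightness in the direction of this class was not tested. Col17a1, the hemidesmosome collagen of stratified epithelia, had 4.92, 5.31 and 5.10 in eNOS-KO against 5.66, 5.36 and 6.69 in WT. WT 5 stood more than 1 log2 above the rest, WT 3 was only just above eNOS-KO 15, and the difference of -0.79 (SE 0.33, a fold of 0.58) had a limma p of 0.0434 before and 0.417 after adjustment. The difference was -0.40 without WT 5 and -1.06 without WT 3. The squamous epithelium markers averaged 8.57 on WT 5 and no more than 6.22 elsewhere, and their part in the Col17a1 difference was not tested. Col25a1, best known from neurons, had 5.38, 5.30 and 5.33 in eNOS-KO against 5.48, 5.48 and 5.77 in WT, apart by -0.24 on average. Col23a1 had 6.20, 6.15 and 6.07 in eNOS-KO against 6.33, 6.34 and 6.15 in WT, a difference of -0.14 with WT 5 inside the eNOS-KO range. Col13a1, found at cell adhesion sites, had 5.91, 5.82 and 5.92 in eNOS-KO against 5.95, 5.92 and 5.91 in WT, a difference of -0.04. All 6 values of Col13a1 lay close together. Repeated quantile normalization and centring on array medians turned the Col13a1 difference positive (0.01 and 0.02).

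None of the 4 network and anchoring chains had an unadjusted p under 0.05, and 3 were above 0 (median 0.16, or 0.03 without eNOS-KO 15 and 0.29 without eNOS-KO 19). Col8a1 and Col8a2 form the hexagonal network made by vascular cells. Col8a1 had 7.20, 6.87 and 6.53 in eNOS-KO against 6.68, 6.70 and 6.53 in WT, a difference of 0.23 (SE 0.18) in which eNOS-KO 19 was at the level of WT 5. It was 0.06 without eNOS-KO 11 and 0.40 without eNOS-KO 19. Col8a2 had 5.13, 5.32 and 4.81 in eNOS-KO against 4.93, 5.08 and 4.63 in WT, a difference of 0.21. In both type VIII chains eNOS-KO 19 was the low array of its group. Col10a1, the hypertrophic cartilage chain, had 5.15, 5.50 and 4.97 in eNOS-KO against 5.02, 5.15 and 5.11 in WT, a difference of 0.11 that was -0.03 without eNOS-KO 15. Col7a1, which anchors epithelia to the dermis, had 5.73, 5.63 and 5.56 in eNOS-KO against 5.83, 5.64 and 6.13 in WT, a difference of -0.23 in which WT 5 was again the highest array, as it was for the squamous epithelium markers, whose part was not tested.

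**Figure D2:**
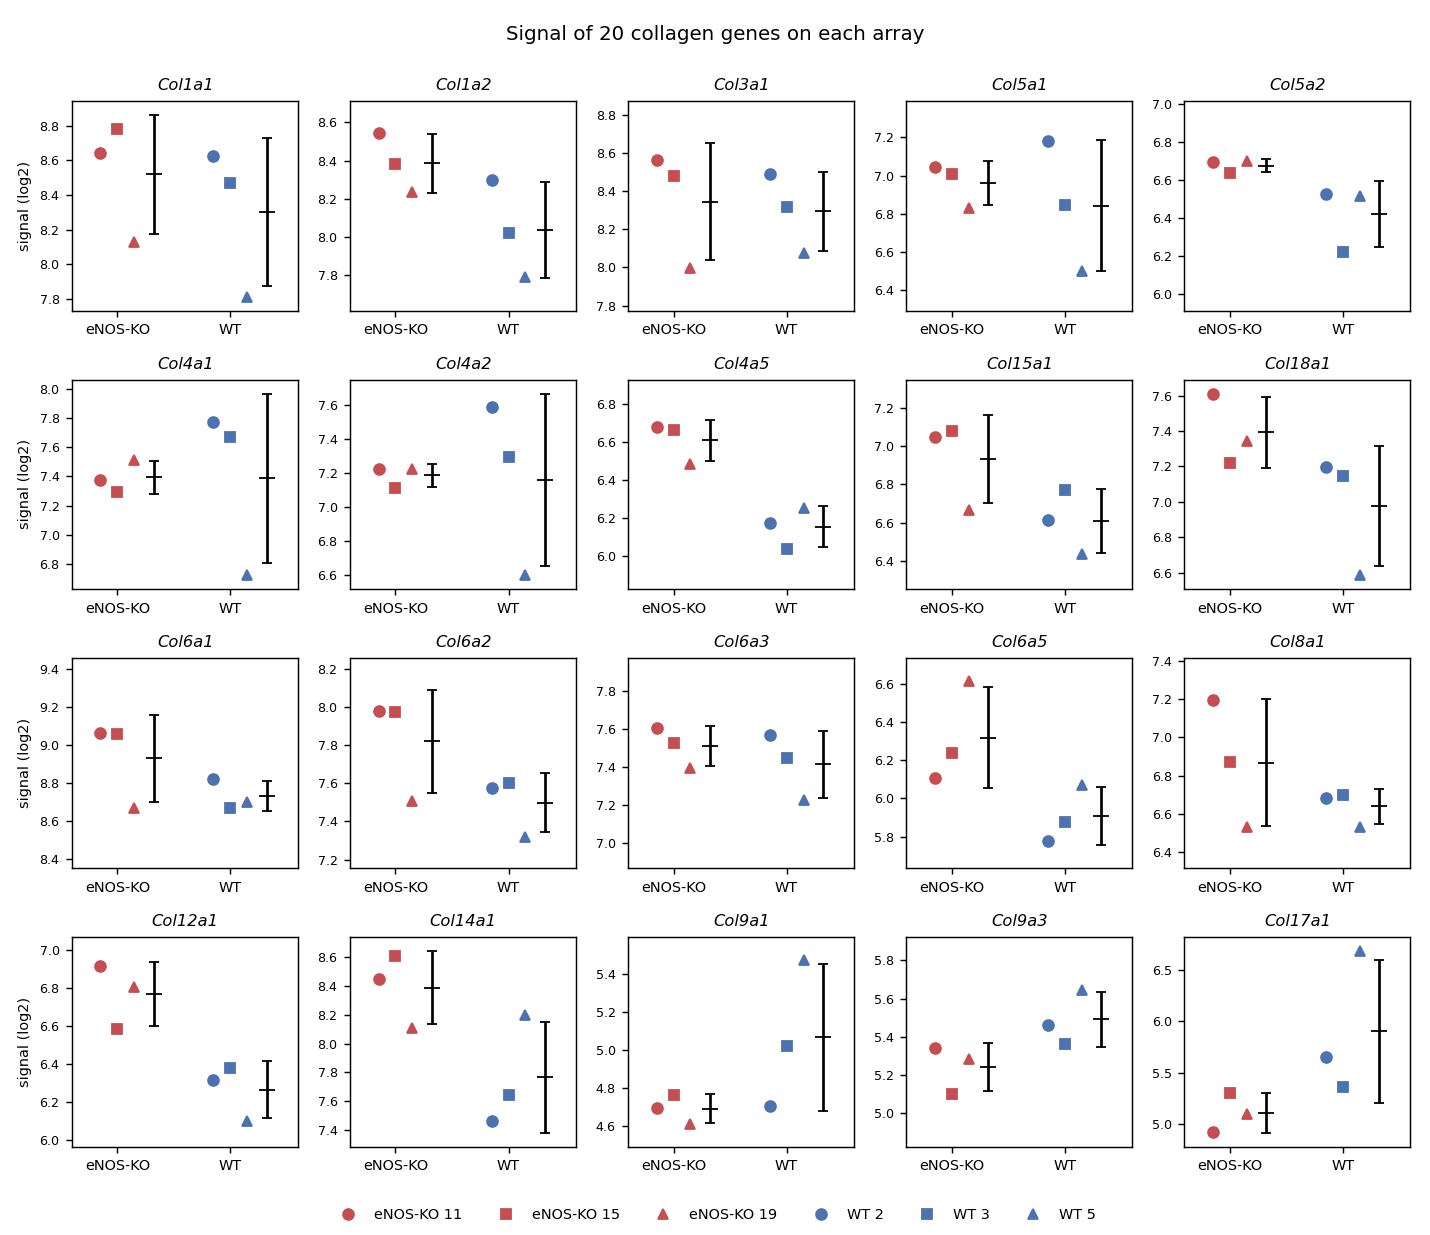
Log2 signal of 20 collagen genes on each array, eNOS-KO left of WT, with the mean and SD of 3 arrays per genotype. Col4a1 and Col4a2 show 1 low WT array (WT 5), and Col17a1 shows WT 5 above all other arrays, while the groups of Col4a5 and Col12a1 do not overlap.

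Some arrays held the extreme signals of the family more often than others. WT 5 held the lowest signal for 15 of the 44 collagens and the highest for 9, whereas WT 3 held the lowest for 5 and the highest for 1. Among eNOS-KO arrays, 11 held the highest for 14 and the lowest for 1, and 19 held the highest for 4 and the lowest for 12. The same was not counted over all genes, so these numbers cannot be read as particular to collagens. Without eNOS-KO 19, 8 collagens were higher at an unadjusted p under 0.05 (Col4a5, Col6a1, Col6a2, Col6a6, Col8a1, Col12a1, Col14a1 and Col15a1), which was 18.2% of the family against 6.40% of all genes in that fit, and none passed adjustment. Without eNOS-KO 15 or without WT 3 the number higher was 2 (4.55%, against 5.15% and 6.84% of all genes in those fits). Col4a5 and Col12a1 kept an unadjusted p under 0.05 whichever array was left out. Col14a1 did not without eNOS-KO 11, eNOS-KO 15, WT 2 or WT 3, Col6a5 did not without eNOS-KO 15, eNOS-KO 19, WT 2 or WT 3, and Col17a1 did not without WT 2 or without any eNOS-KO array in turn.

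Class means showed the same arrays. Relative to the WT mean, fibrillar chains stood at 0.21, 0.16 and -0.08 on eNOS-KO 11, 15 and 19, against 0.12, 0.01 and -0.14 on WT 2, 3 and 5. Basement membrane chains stood at 0.22, 0.21 and 0.12 in eNOS-KO against 0.16, 0.09 and -0.24 in WT, and beaded chains at 0.18, 0.15 and 0.10 in eNOS-KO against -0.01, 0.00 and 0.00 in WT. Only the beaded and transmembrane means did not overlap between genotypes among the 6 classes. How often the means of other gene sets stand apart was not counted. On eNOS-KO 19, Col6a5 lay above WT (6.61 against 5.78 to 6.07), as did Col6a4 and Col28a1 by narrower margins. Col6a1, Col6a2, Col6a3, Col6a6 and Col26a1 did not lie above all WT arrays there. Transmembrane chains stood at -0.32, -0.28 and -0.31 in eNOS-KO against -0.07, -0.14 and 0.21 in WT, and FACIT chains at 0.09, -0.05 and -0.05 in eNOS-KO against -0.06, -0.10 and 0.16 in WT. The classes were grouped with results known, so these means carry no test.

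**Figure D3:**
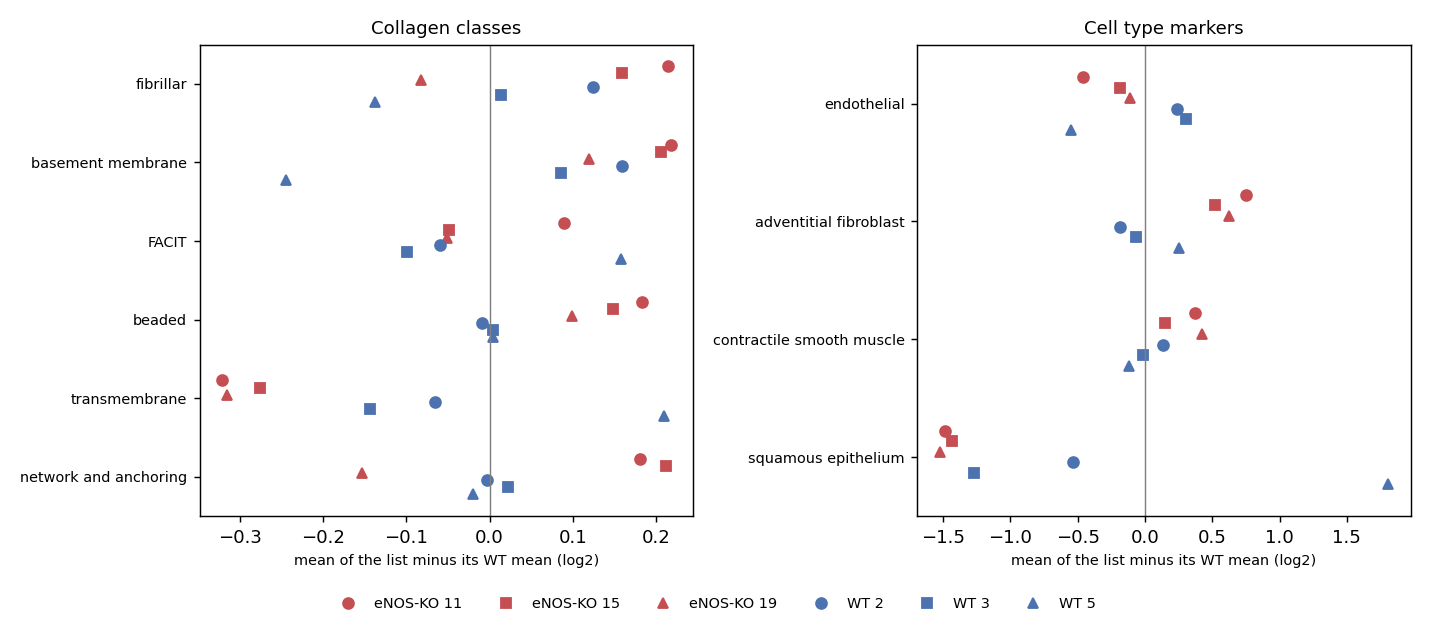
Mean log2 signal of each collagen class and of 4 marker lists on each array, minus the WT mean, for 3 eNOS-KO and 3 WT arrays. Beaded means are above and transmembrane means below all WT arrays in eNOS-KO. WT 5 is lowest for basement membrane chains (-0.24), endothelial markers (-0.55, near eNOS-KO 11 at -0.46) and contractile smooth muscle markers (-0.12). It is far highest for squamous epithelium markers (1.81).

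Pairs of chains were compared within each array, which removes what raises or lowers both. Most pairs share a trimer or a gene pair, but Col1a1 with Col3a1 and Col15a1 with Col18a1 are chains of separate types. Of 12 pairs, Col4a5 minus Col4a6 alone did not overlap between genotypes. It was 0.70, 0.81 and 0.59 in eNOS-KO against 0.03, 0.00 and 0.52 in WT, a difference of 0.52 (two-sided exact permutation p = 0.1, the smallest that 3 against 3 allows, and 0.8 after Benjamini-Hochberg adjustment over the 12 pairs). WT 5 lay near the eNOS-KO values. The other 11 pairs overlapped, with differences between -0.14 and 0.17 and exact permutation p of 0.4 to 1. Among them, Col1a1 minus Col1a2 differed by -0.13, Col6a1 minus Col6a2 by -0.12 and Col4a1 minus Col4a2 by -0.02.

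**Figure D4:**
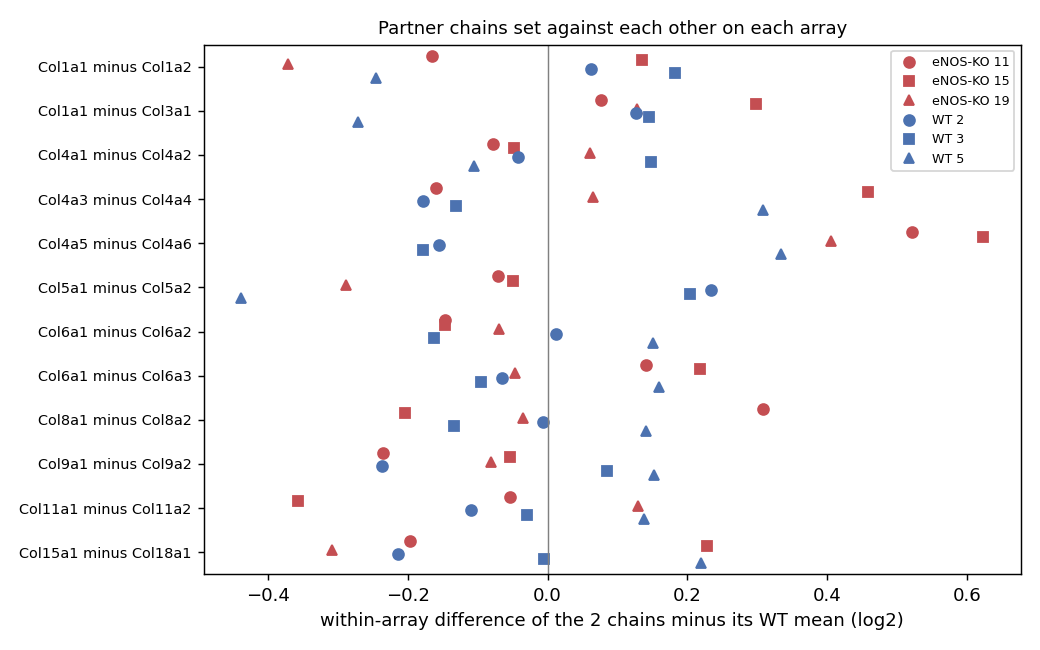
Within-array log2 difference of 12 chain pairs, minus the WT mean of that pair, for 3 eNOS-KO and 3 WT arrays. Only for Col4a5 minus Col4a6 do all eNOS-KO points lie above all WT points.

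Across the 6 arrays, Col4a1 and Col4a2 followed each other most closely of the 12 pairs. Pearson's r was 0.97 (two-sided exact permutation p = 0.00556, adjusted 0.0667 over the pairs) and Spearman's rho 0.94 (exact p = 0.0167, adjusted 0.133). Without WT 2 and WT 5, the arrays farthest from the median, r was 0.89. Over the 12 pairs r lay between -0.68 and 0.97, and none passed adjustment. By RefSeq gene order, 8 pairs of members lie next to each other among protein-coding genes, among them Col3a1 beside Col5a2 and Col9a1 beside Col19a1 on chromosome 1, and Col6a2 beside Col6a1 on chromosome 10. The differences between genotypes were -0.06 for Col4a6 and 0.45 for Col4a5, 0.41 for Col6a5 and -0.04 for Col6a4, and 0.32 for Col6a2 and 0.20 for Col6a1.

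Promoter windows of 250 bases ahead of the start site were found for 35 of the 44 collagen genes, in 38 windows among 32851. GGGCGG, read on both strands, was in 22 collagen windows (57.9%, 21 genes) against 32.7% of all windows. CCAAT was in 13 (34.2% against 33.8%), and TATAAA in 5 (13.2% against 12.4%). These are matches of letters, and windows of a gene can share bases. The gaps between these shares were not tested, and the windows were not matched for base composition.

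Among genes that act on collagen chains, 24 were higher in eNOS-KO at an unadjusted p under 0.05 and none lower, of 68 tested (35.3%, median difference 0.24), beside 7.86% higher and 3.72% lower among all genes, though none passed limma's adjustment. By the same count 4 of 44 collagens were higher and 1 was lower, and the gap between these shares was not tested. The genes that act on collagen averaged 7.92 in eNOS-KO and 7.62 in WT, brighter than all genes tested at 6.81 in eNOS-KO and 6.78 in WT, and brighter genes leaned higher in eNOS-KO at large. The part of brightness in their count was not tested. Each list's count below stands against the same 7.86%. The lists held 78 genes, of which 72 were measured, and were chosen with earlier results of these data known, so they are no independent evidence. Among 19 folding and modification genes, 5 were higher, such as the prolyl 3-hydroxylase P3h2 (7.59 ± 0.23 in eNOS-KO and 6.74 ± 0.23 in WT, SD, n = 3 each), Creb3l1 (a difference of 0.60), a transcription factor of procollagen genes, and Fkbp14 (0.53). Among 11 cleavage and cross-linking genes, 5 were higher, led by Loxl1 (8.80 ± 0.10 in eNOS-KO and 8.14 ± 0.06 in WT, limma adjusted p = 0.198), with Lox (0.82) and Loxl3 (0.59), all lysyl oxidases that cross-link collagen and elastin.

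On the receiving side, 2 of 10 collagen receptors were higher at that p, and the 3 with the smallest p were the integrin Itga11 (0.49), the receptor kinase Ddr2 (0.36) and the uptake receptor Mrc2 (0.31). Of 7 collagen-degrading genes tested, 4 were higher, with Mmp9 at 7.29 ± 0.11 in eNOS-KO and 6.52 ± 0.24 in WT (SD, n = 3 each), Mmp2 different by 0.64 and Mmp14 by 0.45. Of 21 fibril surface and basement membrane partners, 8 were higher. Fibronectin, Fn1, averaged 11.54 ± 0.13 in eNOS-KO and 10.61 ± 0.18 in WT, biglycan, Bgn, differed by 0.74 and fibromodulin, Fmod, by 1.20. The smallest adjusted p in these lists was 0.198. The 10 macrophage markers averaged 8.35 ± 0.22 in eNOS-KO and 7.64 ± 0.18 in WT, with 8 of 10 higher at an unadjusted p under 0.05, and their part, like that of the fibroblast markers, in these differences was not tested.

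**Figure D5:**
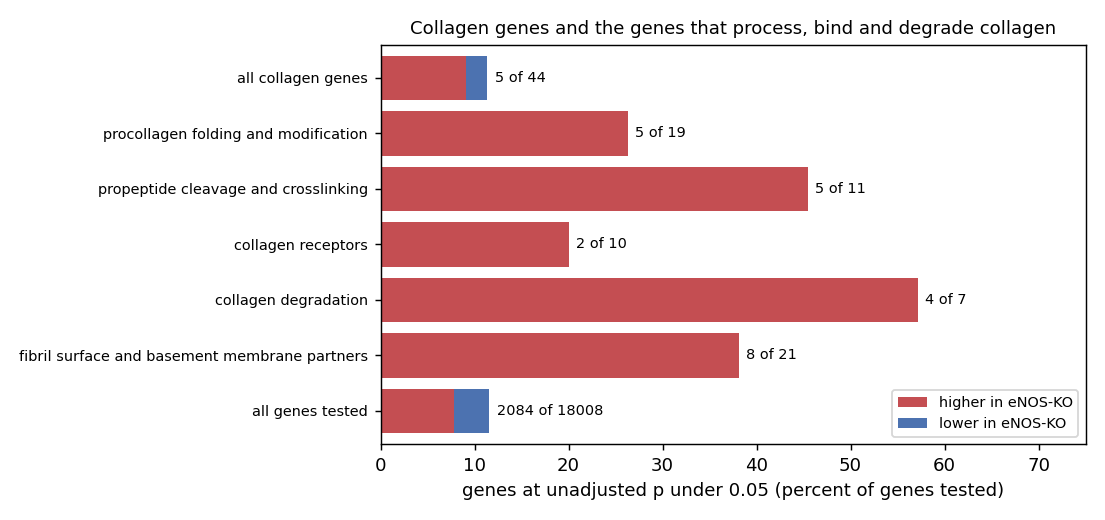
Percent of genes with an unadjusted p under 0.05, higher or lower in eNOS-KO than in WT, for the 44 collagens, 5 lists of genes that act on collagen and all genes tested. Collagens (11.4%) stand beside all genes (11.6%), and the lists range from 2 of 10 receptors to 4 of 7 degradation genes.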

How the data were processed

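Per the submitters' processing notes, the deposited log2 values came from RMA, run in Affymetrix Expression Console 1.3.1; it corrects background, normalizes by quantiles and merges single probes into probe sets. Per the labels' protocols, 300 ng of total RNA was labelled per sample. The authors' log2 values were used as deposited for 6 arrays, 1 per sample, and scanner values were not used here. Quantile normalization removes differences in total signal, so a shift shared by most genes would not show.

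Of 41345 probe sets, 23525 had 1 gene symbol, 1810 several and 16010 none in the platform annotation. A gene was read from its brightest single-symbol probe set, and genes under the 25th percentile of probe set means, 4.38 log2, were left out of the test. All 44 collagens remained among 18008 genes. The members of the family and all lists were chosen with earlier results of these data known. Per-array values were given for Col1a1, Col1a2, Col3a1, Col4a1, Col4a2, Col5a1, Col5a2, Col6a1, Col6a2, Col6a3, Col8a1, Col15a1 and Col18a1 and for up to 4 members of each class by smallest p. Col4a6, Col9a2, the second probe sets and the Col6a1 probe set shared with other genes were added after their values were seen. Up to 3 members of each pathway list were named by smallest p.

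Genotypes were compared with limma 3.58.1 in R 4.3.3 (lmFit, eBayes, two-sided) with Benjamini-Hochberg adjustment at 0.05, after the script had been tested on simulated data. Pairs of chains were compared by exact permutation with scipy 1.17.1 in Python 3.11.15, and plots used matplotlib 3.10.9. Alternatives were other dim filters, variance model, probe set mean, scaling and array weights, and arrays left out. Promoters were matched by symbol to RefSeq tables on GRCm38.p6. Gene order, with no build named by the files, was taken from RefSeq names only.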

Additional observations from a re-analysis of the deposited data

How the results depend on the processing

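No collagen passed an adjusted p of 0.05 under any of the 14 alternatives (limma, smallest adjusted p = 0.0599, with array weights). Col4a5 and Col12a1 had an unadjusted p under 0.05 in all 14, Col6a5 in 10, Col14a1 in 9 and Col17a1 in 6. Of 413 recomputed values for 30 named collagens, 390 kept their direction, and 21 collagens kept it throughout. The 390 include values that could not change. The other dim filters and the variance model leave a gene's difference as it was. The probe set mean alters the difference only for genes with further probe sets, which among those named were Col1a2, Col5a1 and Col6a1. The count of kept directions therefore overstates how far direction was tested. No paired analysis was possible because the genotypes share no replicate numbers.

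Leaving out 1 array at a time, the number of collagens higher at that p was 2 to 8, beside 4.96% to 8.93% of all genes. The number lower was 0 to 2, beside 2.38% to 5.93%. Collagens without overlap were 5 to 15 higher, beside 16.8% to 19.5% of all genes, and 5 to 8 lower, beside 9.56% to 16.2%. With all arrays these shares of all genes were 13.1% and 6.47%, so fewer arrays alone raised them. The 15, without eNOS-KO 19, were 34.1% of collagens against 18.9% of all genes. The median difference was -0.0011 to 0.13 for collagens, 0.0013 to 0.060 for all genes, -0.027 to 0.18 for fibrillar, 0.066 to 0.22 for basement membrane, -0.19 to -0.040 for FACIT, 0.089 to 0.21 for beaded, -0.21 to -0.17 for transmembrane and 0.027 to 0.29 for network and anchoring chains. Pathway genes lower at an unadjusted p under 0.05 numbered 0 to 4 of 68, beside the same 2.38% to 5.93% of all genes. Differences ranged from -0.058 to 0.23 for Col3a1, -0.33 to 0.20 for Col4a1, -0.25 to 0.24 for Col4a2, -0.035 to 0.23 for Col10a1, -0.027 to 0.41 for Col1a1 and -0.053 to 0.29 for Col5a1. They were 0.40 to 0.51 for Col4a5, 0.42 to 0.59 for Col12a1, 0.47 to 0.84 for Col14a1, 0.26 to 0.52 for Col6a5, 0.13 to 0.44 for Col6a6, 0.23 to 0.48 for Col1a2, 0.15 to 0.31 for Col5a2, -0.34 to -0.097 for Col7a1 and -1.06 to -0.40 for Col17a1. Chain pairs ranged from -0.075 to 0.052 (Col4a1 minus Col4a2), -0.047 to 0.28 (Col4a3 minus Col4a4), -0.12 to 0.14 (Col8a1 minus Col8a2), -0.21 to 0.038 (Col11a1 minus Col11a2) and -0.25 to 0.017 (Col15a1 minus Col18a1).

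Without eNOS-KO 11 and WT 5 together, Col3a1 differed by -0.17, Col4a1 by -0.32, Col4a2 by -0.27, Col1a1 by -0.090, Col5a1 by -0.094, Col5a3 by -0.0085 and Col6a3 by -0.047. Col8a1 minus Col8a2 was then -0.050, Col9a1 minus Col9a2 was 0.0091 and Col15a1 minus Col18a1 was 0.069. Collagens lower at that p numbered 0 and pathway genes lower 4 (5.88%), beside 6.20% of all genes in that fit. Collagens without overlap and lower numbered 10 (22.7%), beside 22.4% of all genes. The median was -0.033 for collagens, 0.0069 for all genes and 0.085 for beaded chains.

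With a filter at the 50th percentile, 30 collagens remained. Of these, 0 were lower at that p, beside 2.14% of all genes, and 1 was lower without overlap, beside 3.94%. The median was then 0.13 for collagens, 0.23 for beaded chains, 0.00075 for network and anchoring chains and 0.081 for all genes. With no filter, the median of all genes was 0.0060. Centring on array medians gave 0.10 for all genes, 0.21 for beaded chains and 0.022 for Col13a1. It left 2 collagens lower without overlap, beside 3.75% of all genes. Of all genes at that p, 83.9% were then higher, against 67.9% as reported. Repeated quantile normalization gave 0.074 for beaded chains, and differences of -0.047 for Col3a1, -0.040 for Col4a1, -0.0042 for Col4a2 and 0.012 for Col13a1. It left 0 collagens lower at that p, beside 2.69% of all genes, and 2 lower without overlap, beside 5.18%. Array weights gave -0.29 for Col4a1, -0.22 for Col4a2, 0.19 for Col18a1 and 0.011 for the median of all genes. They left 2 pathway genes lower at that p (2.94%), beside 7.22% of all genes. The cause of these changes was not tested.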
